A study of Homo sapiens with 20 samples.

Results

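Krüppel-like factors were followed as a family of 9 genes, chosen by their gene identifiers from the 19962 genes of the count table, 18251 of which had a count in any library. The genes are KLF2 (ENSG00000127528), KLF3 (ENSG00000109787), KLF4 (ENSG00000136826), KLF5 (ENSG00000102554), KLF6 (ENSG00000067082), KLF9 (ENSG00000119138), KLF10 (ENSG00000155090), KLF11 (ENSG00000172059) and KLF13 (ENSG00000169926). KLF10 heads the set because its count changed under the stresses, so the family was put together with results of the same comparisons known. The fold changes and adjusted p-values below therefore place each member within a fit of all genes and are not independent evidence. IGF2BP3 PAR-CLIP was performed in HCT116, a human colorectal carcinoma cell line that here carried Tet-OsTIR1, an inducible plant receptor used for degrading tagged proteins. PAR-CLIP crosslinks a protein to RNA that has taken up a photoreactive uridine analogue and sequences the RNA fragments that come down with an antibody to the protein.

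All cells received 100 µM 4-thiouridine 15 h before collection and 365 nm light at 0.15 J/cm2, and cells of several dishes were combined for each condition. Tunicamycin (TM), which blocks N-glycosylation and stresses the endoplasmic reticulum, was added to 5 µg/mL, 1 h or 4 h before collection. Both times were compared with DMSO at a dilution of 1:1000, for which 4 h is the only time given. Sodium arsenite, an oxidative stressor, was given at 250 µM for 2 h and compared with PBS diluted 1:1000; the sample titles name arsenite and the treatment protocol names arsenate. Each of the 5 conditions had 3 anti-IGF2BP3 libraries and 1 control IgG library, and nothing in the labels says whether the 3 came from separate cultures, so p-values measure the spread between these libraries. The names of the libraries form 3 sets: all of PBS and arsenite; replicates 1 and 2 of DMSO, TM 1 h and TM 4 h; and their replicate 3 together with the IgG libraries of DMSO and TM. Anti-IGF2BP3 libraries held 130478 to 1568406 gene counts, the lowest being PBS replicate 2, and IgG libraries held 5981 to 17503. Clusters lay in 7 of 8 colorectal epithelium marker genes, in 0 of 6 fibroblast and 0 of 3 endothelial markers, and in 1 of 5 immune markers with 15 reads.

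Krüppel-like factors are transcription factors that bind GC-rich and CACCC elements through zinc fingers at the C terminus. Several are encoded by short-lived mRNAs that respond quickly to growth factors, shear stress or injury. In the intestine KLF5 is known for the proliferating crypt and KLF4 for differentiated cells, and KLF10 and KLF11 were named TGF-beta-inducible early genes. IGF2BP3 is a cytoplasmic RNA-binding protein with KH and RRM domains that affects the stability and translation of its target mRNAs. A PAR-CLIP count holds both how much of an RNA the cell has and how much of it was crosslinked and recovered, and these cannot be told apart from the values used here.

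Crosslinked clusters, which are stretches of overlapping reads with converted thymidines, lay in 7 of the 9 genes. Over the 15 anti-IGF2BP3 libraries they numbered 181 in KLF5, 132 in KLF10, 124 in KLF3, 111 in KLF6, 69 in KLF13, 29 in KLF4 and 12 in KLF11. KLF2 and KLF9 had 0, with 113 and 126 gene counts in all 15 libraries together. In KLF4, KLF5, KLF6, KLF11 and KLF13 every cluster lay on the gene's own strand. For KLF3 and KLF10 the strand was taken from the clusters themselves, which all lay on a single strand. KLF3 shares its span with KLF3-AS1, KLF9 with KLF9-DT and LOC124900273, and KLF13 with LOC105370939 and UBE2CP4. The strand setting of the gene counts is not given in the sources used here, so the counts of KLF3, KLF9 and KLF13 are uncertain. The IgG lists held 0 clusters in any member, from libraries of 5981 to 17503 gene counts. Anti-IGF2BP3 PBS replicate 2, with 130478 gene counts, had a cluster only in KLF5, with 5 reads. At the IgG depth the absence of clusters therefore cannot show that background was absent.

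The most-read places of the members show what was recovered, and windows of 30 bases are printed below. Each window holds the mode position that the deposited cluster lists give for a cluster, taken as listed. The bases run 5′ to 3′ on the RNA's strand in GRCh38/hg38, with CATA, CATC or CATT in capitals. These letters were searched on that strand only, because CAU-containing motifs are known for IGF2BP proteins (a CATC can share its last letter with the next motif). The mode position lies at the edge of the window in the first and the last main KLF5 regions near the end, in KLF6 and in KLF4. The cluster ended there. Positions are from the cluster lists, and exon or UTR boundaries were not used here. KLF5 has 4 lines because its regions behaved differently under arsenite, and no sequence is printed for KLF10.
KLF5 upstream region, chr13:73062527-73062556, plus strand: ggaagtccagatagacaagcagagatgctc
KLF5 first region near the end, chr13:73076233-73076262, plus strand: taaacaaatcagttggcaggcaccagaaga
KLF5 next region, chr13:73076349-73076378, plus strand: caattcacaaatagcCATTgaacaaatgtg
KLF5 last main region, chr13:73076709-73076738, plus strand: atagttacaaaatacaaaagttcaacctct
KLF6 main region, chr10:3778022-3778051, minus strand: aaatctgaccaattctgccaccttgagact
KLF3 main region, chr4:38697307-38697336, plus strand: ctctctctctgtcctgcctccCATTatcta
KLF4 main region, chr9:107485662-107485691, minus strand: cacactgtcttcccgatgagggaaggagcc
KLF13 main region, chr15:31377698-31377727, plus strand: attacagttgtacagttcccagtctggcct

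Of these windows only those of the next KLF5 region and of KLF3 held a CATT, and each held it 1 time. Among 364271 windows of the same length, taken the same way from anti-IGF2BP3 clusters of at least 30 bases, 147399, or 40.5%, held at least 1 of the 3 motifs. A match or its absence in 30 bases is a description of those letters.

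KLF10, a repressor of transcription induced early by TGF-beta, moved under all 3 treatments. Levels are counts per 1000000 gene counts (CPM), with library sizes scaled by TMM over the 15 libraries. The 3 TM 1 h libraries gave 130, 151 and 128 CPM and the 3 DMSO libraries 301, 245 and 311. All TM 1 h libraries lay below all DMSO libraries, as held for 7.74% of all genes tested. The means were 136 ± 12.7 and 286 ± 35.3 (SD, n = 3). In the edgeR quasi-likelihood fit KLF10 fell (log2 fold change -1.08, SE 0.13, adjusted p = 1.07e-08). It was the only member called of 8 tested, where 0.551% of 8343 genes were called and 0.408% were called downwards. By the p of that fit it ranked 2 of 8343 genes. The fall was present in both library sets: 273 to 140.5 CPM over replicates 1 and 2 and 311 to 128 CPM in replicate 3.

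After 4 h of TM the KLF10 libraries gave 235, 208 and 212 CPM, a mean of 218 ± 14.6 (SD, n = 3) that lay between TM 1 h and DMSO. From TM 1 h to TM 4 h KLF10 rose by 0.68 on the log2 scale (SE 0.13, edgeR adjusted p = 0.000103), with no overlap between the libraries, as held upwards for 14% of all genes tested and downwards for 12.8%. Against DMSO it was still lower at 4 h, at -0.40 (SE 0.11, edgeR adjusted p = 0.0118) and without overlap, as were 10.2% of all genes tested. That call was lost without DMSO replicate 3, where the adjusted p was 0.251, without TM 4 h replicate 3, where it was 0.103, and under DESeq2, where it was 0.125. In replicates 1 and 2 alone the log2 fold change was -0.27 with an edgeR adjusted p of 0.47.

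With arsenite, KLF10 was recovered at 551, 538 and 743 CPM, against 245, 184 and 217 in PBS. Every arsenite library lay above every library of the other 4 conditions. The means were 611 ± 114 and 215 ± 30.5 (SD, n = 3), and KLF10 rose (log2 fold change 1.49, SE 0.12, edgeR adjusted p = 3.47e-24). Arsenite changed a large share of all genes: 34.8% of 6642 were called, 17.6% upwards and 17.1% downwards. Arsenite ranges lay above PBS ranges for 22.8% of them. In order of level the 5 conditions ran TM 1 h, PBS, TM 4 h, DMSO and arsenite, and the PBS and TM 4 h ranges overlapped while the other neighbours did not.

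**Figure D1:**
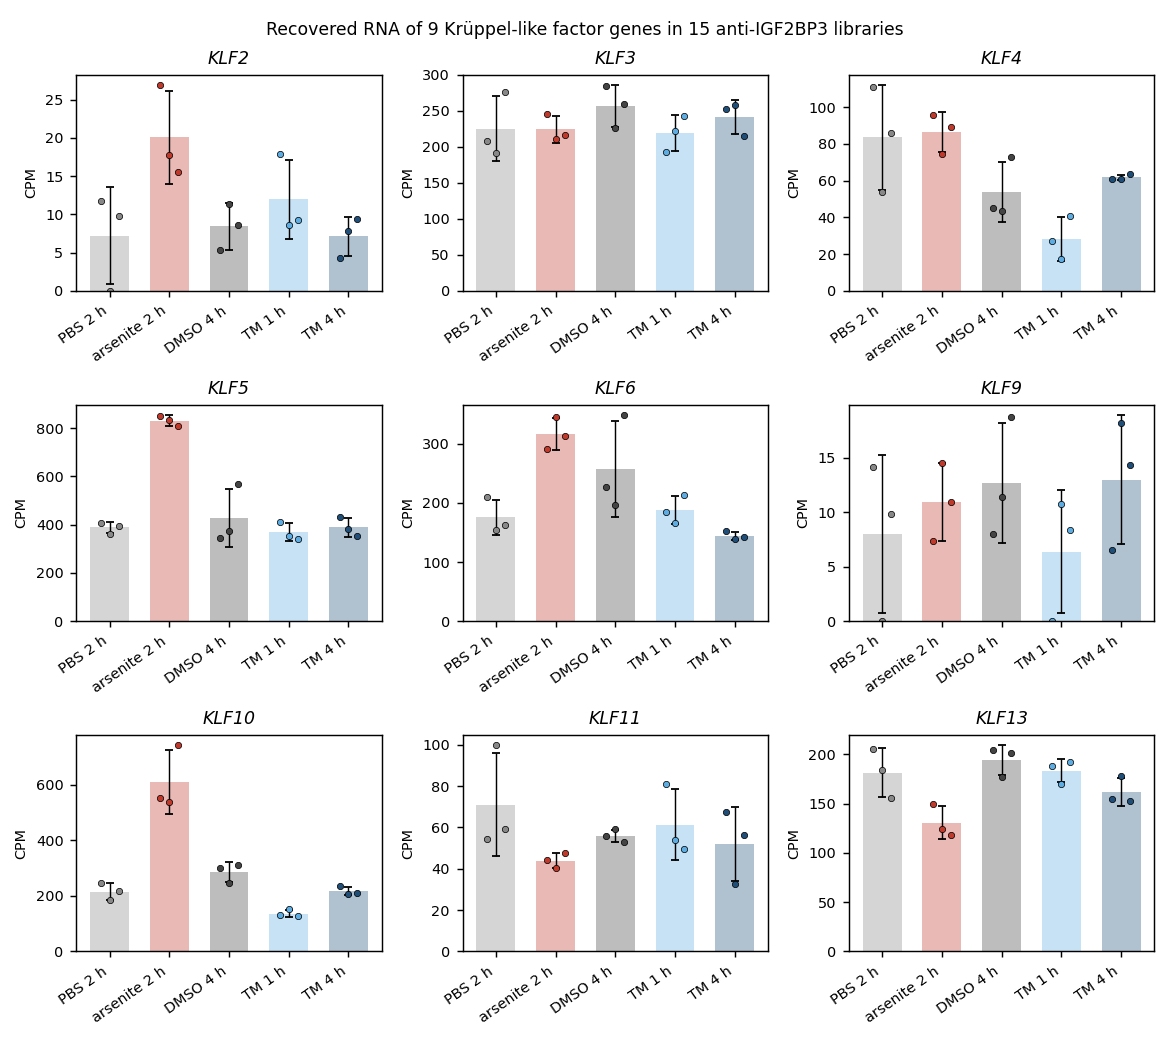
CPM (TMM scaling over 15 libraries) of the 9 Krüppel-like factor genes by condition; points are libraries, bars are means and error bars are the SD of 3 libraries, and each panel has its own axis from 0. KLF10 is lowest after TM 1 h (128 to 151 CPM) and KLF10, KLF5 and KLF6 are higher in arsenite than in PBS.

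KLF11, the close relative of KLF10 that also answers to TGF-beta, was called in no comparison. Its 3 DMSO libraries gave 55.9, 59.0 and 53.2 CPM and its TM 1 h libraries 80.8, 53.9 and 49.3. The log2 fold change was -0.01 (SE 0.22, edgeR adjusted p = 0.997), and the 2 ranges overlapped. Arsenite libraries gave 44.1, 40.4 and 47.4 CPM and PBS libraries 54.2, 99.8 and 59.1, so the ranges did not overlap, yet the log2 fold change of -0.50 (SE 0.27) had an edgeR adjusted p of 0.143. Of all genes tested, 43.6% had arsenite and PBS ranges that did not overlap, in either direction, with arsenite higher in 22.8% and lower in 20.9%.

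KLF5, a factor of proliferating intestinal epithelium, had overlapping levels in neighbouring conditions except arsenite, where it was high. PBS libraries gave 408, 361 and 397 CPM and arsenite libraries 853, 836 and 807. Means were 388 ± 24.6 and 832 ± 22.8 (SD, n = 3), and the log2 fold change was 1.07 (SE 0.09; edgeR adjusted p = 6.82e-21). Neither TM time was called against DMSO: the log2 fold changes were -0.32 (SE 0.11, edgeR adjusted p = 0.263) at 1 h and -0.22 (SE 0.11, adjusted p = 0.252) at 4 h. Both depended on DMSO replicate 3, at 567 CPM against 346 and 372 in replicates 1 and 2, and in replicates 1 and 2 alone they were 0.05 and 0.16.

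The place of the KLF5 reads differed between conditions. A region of 797 bases, 6957 to 7753 bases from the start of the 22563-base gene span (chr13:73061932-73062728), held 70.4%, 64.7% and 62.7% of the KLF5 cluster reads in the 3 arsenite libraries. In PBS it held 7.77% of 103 reads, 0 of 5 reads and 14.4% of 90 reads. DMSO libraries had 5.95%, 19.6% and 19.9% there, TM 1 h libraries 30.8%, 19.1% and 17.3%, and TM 4 h libraries 24.2%, 32.6% and 18.8%. The arsenite shares were thus above those of all 12 other libraries, though this region was singled out after its values were seen and carries no test.

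Scaled to 1000000 gene counts (RPM), cluster reads in that region came to 18.9, 0 and 32.2 in PBS and 517, 504 and 473 in arsenite. In the rest of KLF5 they came to 224, 38.3 and 191 in PBS and 217, 274 and 281 in arsenite, with overlapping ranges. The 3 main regions near the end of the gene, 21009 to 22046 bases from its start, averaged 43.9, 55.5 and 43.9 in PBS and 74.3, 86.7 and 48.5 in arsenite. Most of the added KLF5 cluster reads lay in the upstream region, where the mean went from 17.0 to 498 RPM, against 151 to 258 outside it. PBS replicate 2, with 5 KLF5 cluster reads, lowers each PBS mean given here. At the upstream region 11.1% of the conversion and non-conversion events were conversions, and 9.71% over all KLF5 clusters.

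Averaged over reads, the position along the KLF5 span was 90.5% and 85.9% in the PBS libraries with at least 20 cluster reads, and 50.2%, 53.7% and 56.0% in arsenite. PBS replicate 2, with 5 reads, gave no position. The shift of -34.9 percentage points stood against a median of -1.16 over 1245 genes with enough reads, and 1 gene shifted further towards its start. A move towards the start was common: 43.0% of those genes had arsenite positions all nearer the start than the PBS ones and 5.86% all nearer the end. KLF10 and KLF6 moved by -3.28 and -0.47 percentage points, with overlapping ranges. Shares of a span depend on intron length, so positions are compared within a gene.

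**Figure D2:**
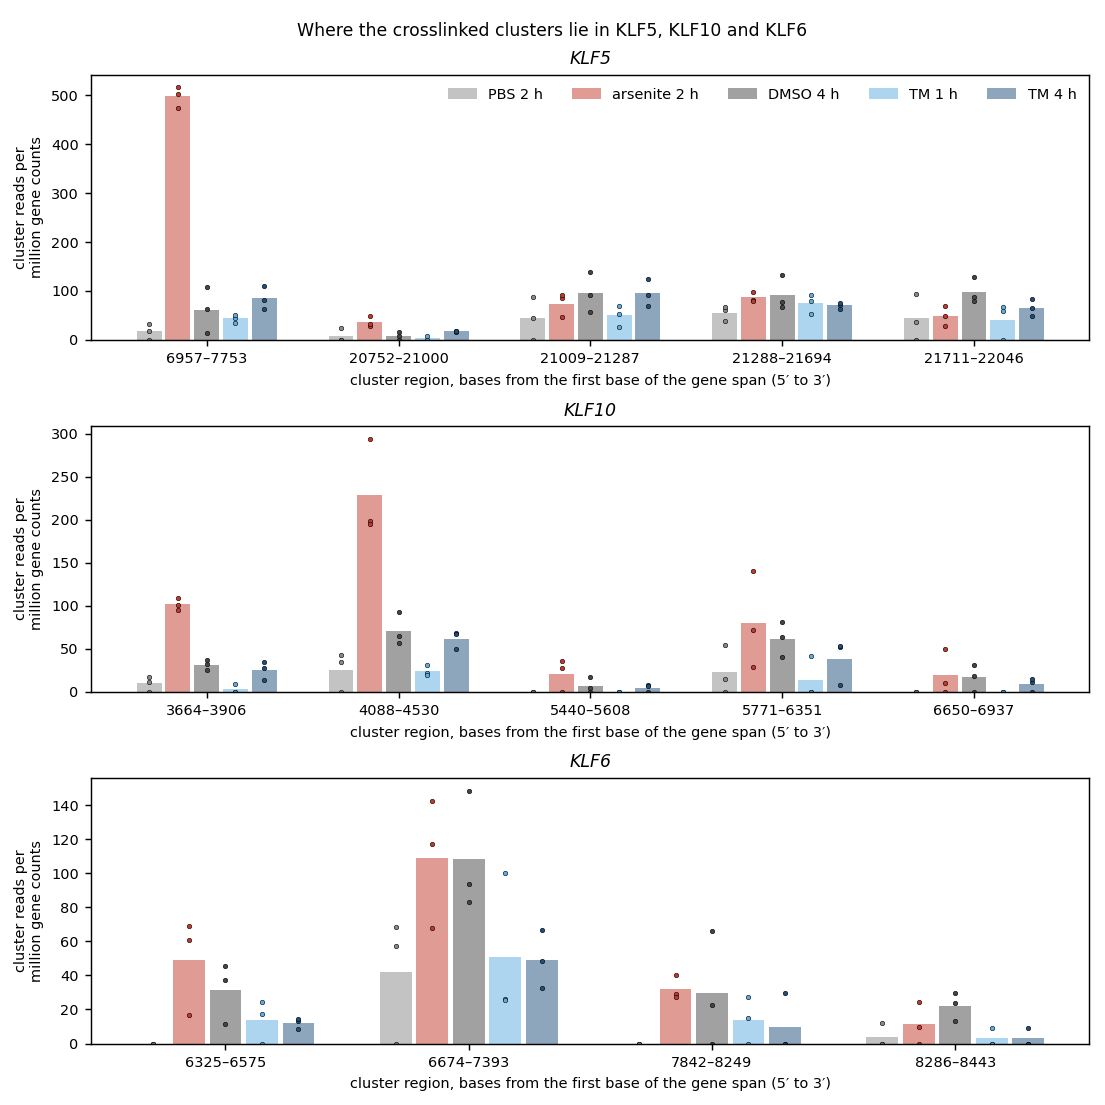
Cluster reads per 1000000 gene counts (RPM) in each region that holds at least 3% of the gene's cluster reads, for KLF5, KLF10 and KLF6, with regions ordered by distance from the gene start; bars are means of 3 libraries and points are libraries. In KLF5 the arsenite bar stands out at 6957 to 7753 bases (473 to 517), and in KLF10 the regions at 3664 to 3906 and 4088 to 4530 bases are higher in all arsenite libraries than in the others.

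In KLF10 the added reads were spread over several regions. The region 4088 to 4530 bases from the start of its 6942-base span, on chromosome 8, held 41.2% of its cluster reads. There the mean was 25.7 ± 22.6 RPM in PBS and 229 ± 56.1 in arsenite (SD, n = 3). DMSO libraries averaged 71.0 ± 19.0, TM 1 h libraries 24.0 ± 5.93 and TM 4 h libraries 61.4 ± 10.1 RPM. No TM 1 h library reached the lowest DMSO library in this region. The region at 3664 to 3906 bases averaged 9.72 in PBS and 102 in arsenite, and 31.2 in DMSO and 2.81 at TM 1 h. In the region at 5771 to 6351 bases the means were 23.0 and 80.5 in PBS and arsenite, and 61.5 and 13.7 in DMSO and at TM 1 h. The ranges overlapped in both comparisons. In this region, and in that at 3664 to 3906 bases, only 1 TM 1 h library had cluster reads. Cluster reads outside the most-read region were 161.8 to 386.9 RPM in arsenite and 0 to 66.0 in PBS.

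KLF6, an early response gene and tumour suppressor, rose with arsenite and fell with TM. PBS libraries gave 210, 154 and 163 CPM and arsenite libraries 292, 346 and 313. They did not overlap, as held upwards for 22.8% of all genes tested. The log2 fold change was 0.81 (SE 0.13, edgeR adjusted p = 1.13e-07). TM 4 h libraries gave 152, 139 and 142.2 CPM and DMSO libraries 226, 197 and 349. All TM 4 h libraries were below all DMSO libraries, as held for 10.2% of all genes tested. KLF6 fell (log2 fold change -0.90, SE 0.13, edgeR adjusted p = 1.33e-06). KLF6 and KLF10 were the 2 members called of 8, where 5.11% of 8343 genes were called and 2.31% downwards. The size rested partly on DMSO replicate 3, without which it was -0.53 and still called (edgeR adjusted p = 0.0173). In replicates 1 and 2 of all 3 conditions alone it was -0.52 and the adjusted p was 0.0834.

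TM 1 h libraries of KLF6 gave 184, 166 and 214 CPM, a range that overlapped that of DMSO. The log2 fold change from DMSO was -0.46 (SE 0.14, edgeR adjusted p = 0.132), and it turned on single DMSO libraries. It was -0.66 (edgeR adjusted p = 0.00498) without DMSO replicate 2 and -0.08 (adjusted p = 0.916) without DMSO replicate 3. From TM 1 h to TM 4 h the edgeR log2 fold change was -0.44 (SE 0.15, adjusted p = 0.0416), the reverse of KLF10. Leaving out TM 1 h replicate 1, TM 1 h replicate 3, TM 4 h replicate 2 or TM 4 h replicate 3 ended that call, with adjusted p-values of 0.0618, 0.505, 0.081 and 0.127. Library totals in place of TMM gave an edgeR adjusted p of 0.0535. The KLF6 region 6674 to 7393 bases from the start held 56.4% of its cluster reads, at 108 ± 35.02 RPM in DMSO and 49.4 ± 17.1 at TM 4 h (SD, n = 3), without overlap.

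KLF4, a factor of differentiated epithelium that is also used in reprogramming, was lowest at TM 1 h. The TM 1 h libraries gave 26.9, 17.2 and 40.96 CPM, DMSO libraries 45.2, 43.5 and 72.7, and TM 4 h libraries 60.9, 61.0 and 63.6. These TM 1 h values rest on 6, 8 and 44 counts. Against DMSO the log2 fold change was -0.82 (SE 0.25, edgeR adjusted p = 0.154), with ranges that did not overlap, as held downwards for 7.74% of all genes tested. It was -1.48 without TM 1 h replicate 3 and -0.44 without DMSO replicate 3. From TM 1 h to TM 4 h KLF4 rose by 0.94 (SE 0.25, edgeR adjusted p = 0.0055). Without TM 1 h replicate 2 the value was 0.70 and the edgeR adjusted p 0.0817, and without TM 1 h replicate 3 they were 1.60 and 0.00257. In that comparison 3 of 8 members were called, KLF4 and KLF10 upwards and KLF6 downwards, where 11.6% of 8343 genes were called, 5.6% upwards and 5.99% downwards. PBS libraries gave 111, 53.7 and 86.2 CPM and arsenite libraries 95.6, 74.4 and 89.3, which overlapped, and the log2 fold change was -0.09 (SE 0.21).

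KLF13, a factor first known from T lymphocytes and erythroid genes, went the other way under arsenite. Its libraries gave 205, 184 and 155 CPM in PBS and 149, 125 and 119 in arsenite, so that the log2 fold change was -0.51 (SE 0.16; edgeR adjusted p = 0.00777) and the ranges did not overlap, as held downwards for 20.9% of all genes tested. Without PBS replicate 1 the adjusted p was 0.205, without arsenite replicate 3 it was 0.0917, and DESeq2 gave 0.0988. In this comparison 4 of 7 members tested were called, KLF5, KLF6 and KLF10 upwards and KLF13 downwards, where 34.8% of 6642 genes were called, 17.6% upwards and 17.1% downwards. Clusters of KLF13 lay in 18 regions, all but the last of them 45547 to 50908 bases from the start of its 108831-base span. The most-read region held 32.0% of the KLF13 cluster reads.

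KLF3, a repressor that works through CtBP, stayed within its spread in all 5 conditions. Condition means ran from 219 ± 25.1 CPM at TM 1 h to 256 ± 29.5 in DMSO (SD, n = 3), and each condition overlapped its neighbour in that order. Its log2 fold changes were -0.14 (SE 0.12), -0.09 (SE 0.11) and -0.08 (SE 0.13) for TM 1 h, TM 4 h and arsenite. KLF2, known from endothelium and lymphocytes, and KLF9, a glucocorticoid- and thyroid-hormone-responsive repressor, had few counts. KLF2 averaged 7.16 ± 2.56 CPM at TM 4 h and 20.1 ± 6.06 in arsenite. Its arsenite libraries, with 11, 11 and 17 counts, lay above its PBS libraries with 5, 0 and 4. Of the genes tested between arsenite and PBS, 22.8% had arsenite ranges above the PBS ranges. KLF2 passed the filter on low counts in no comparison of treatments, and KLF9 passed only in the TM comparisons, where it was not called.

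**Figure D3:**
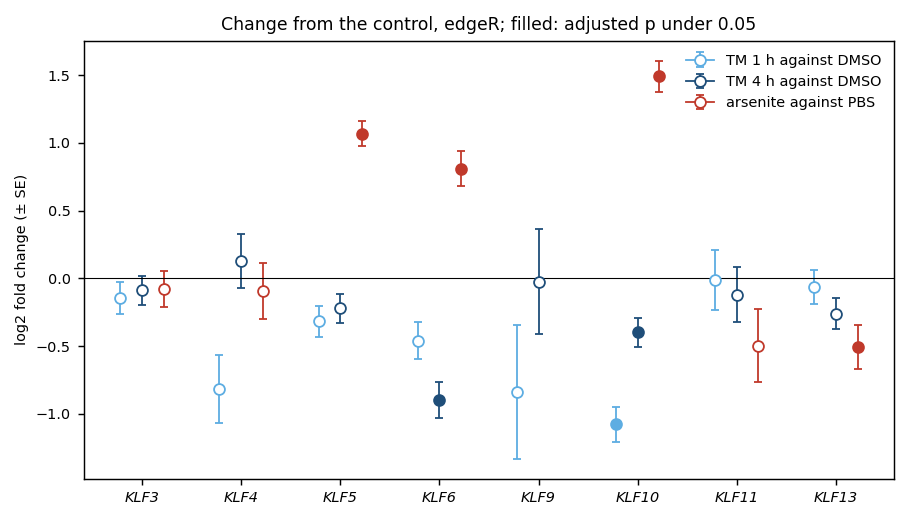
Log2 fold change with its standard error for each member in 3 comparisons with the control, from edgeR fits across all genes; filled points have an adjusted p under 0.05 and open points do not, and a missing point means that the gene did not pass the filter on low counts. KLF10 is negative after TM (-1.08 and -0.40) and positive after arsenite (1.49).

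The responses to the 2 stresses were also set against each other in 1 fit of the arsenite, PBS, TM 4 h and DMSO libraries. The arsenite change exceeded the TM 4 h change for KLF10 by 1.88 (SE 0.17, edgeR adjusted p = 1.97e-14), for KLF6 by 1.71 (SE 0.20, adjusted p = 4.19e-10) and for KLF5 by 1.29 (SE 0.15, adjusted p = 4.83e-10). Thus 3 of 7 members tested were called, all upwards, where 18.3% of 7796 genes were called and 8.57% upwards. KLF3, KLF4, KLF11 and KLF13 were not called, with differences of 0.01, -0.22, -0.38 and -0.25. Stress, exposure time and library set differ together here and cannot be told apart.

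Control IgG set a limit on what the counts show. KLF10 had 16 of 52256 counts in the pooled IgG libraries, or 306 CPM without TMM scaling (95% exact Clopper-Pearson interval 175 to 497), and 310 CPM (299 to 321) in the pooled anti-IGF2BP3 libraries. By condition its IgG libraries held 7 counts for TM 4 h, 0 for TM 1 h, 1 for DMSO, 5 for arsenite and 3 for PBS. For TM 4 h KLF10 was higher with IgG, at 606.5 CPM (243.9 to 1249), than with anti-IGF2BP3, at 217.8 CPM (200.8 to 235.8). In each other condition the 2 intervals overlapped. By the same exact interval the 0 of 5981 counts for TM 1 h allows up to 617 CPM. Intervals and limits cover counting error only.

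KLF5 had 306 CPM (175 to 497) with IgG and 490 (477 to 504) with anti-IGF2BP3, and KLF13 57.4 (11.8 to 168) and 168 (160 to 176). These 2 of 7 members tested were called in the fit of antibody with condition as a covariate, at log2 fold changes of 1.23 (SE 0.33, edgeR adjusted p = 0.00688) and 2.14 (SE 0.67, adjusted p = 0.0254), where 8.29% of 7022 genes were called and 7.43% were higher with anti-IGF2BP3. KLF10 had 0.54 (SE 0.36, adjusted p = 0.333). The fit depended on scaling, since TMM put the median of all genes at 0.71 and library totals at 0.09. With TMM 522 genes were higher and 60 lower with anti-IGF2BP3, with library totals 6 and 86, and by DESeq2 3 and 175. Under library totals neither KLF5 (0.58, edgeR adjusted p = 0.581) nor KLF13 (1.53, adjusted p = 0.442) was called, and KLF10 stood at -0.11. Without the arsenite IgG library KLF5 and KLF13 had adjusted p-values of 0.121 and 0.0754, and without the DMSO one 0.0589 and 0.0904. KLF13 alone was also lost without the TM 1 h or the TM 4 h IgG library, at 0.0767 and 0.0964. All 3 IgG counts of KLF13 came from the PBS IgG library, so this 1 library set the size of its fold change. Without it every remaining IgG library was at 0 for KLF13, and the fitted value of 9.48 (edgeR adjusted p = 0.00239) is no bound. At this IgG depth most members were not distinguishable from the background by their gene counts.

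**Figure D4:**
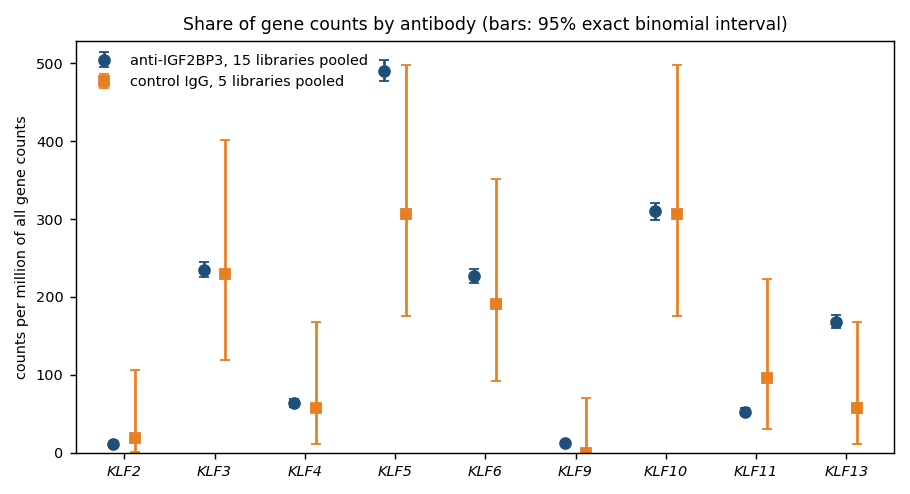
Counts of each member per 1000000 gene counts (CPM, without TMM scaling) in the 15 anti-IGF2BP3 libraries pooled and the 5 IgG libraries pooled; error bars are 95% exact binomial intervals and cover counting error only. The intervals of KLF10 overlap (310 and 306 CPM), as do those of the other members.

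Clusters gave another readout with fewer reads. Cluster reads came to 85.6% of the gene counts in KLF5, 73.1% in KLF10, 67.6% in KLF6, 50.2% in KLF4, 50.1% in KLF3, 41.8% in KLF13 and 16.4% in KLF11. Summed over the family they were 587, 38.3 and 508 in PBS and 1283, 1567 and 1916 RPM in arsenite. The mean log2 difference was 2.80 (two-sided exact permutation p = 0.1, the smallest that 3 against 3 libraries can give, and 0.4 adjusted over 4 comparisons), and 1.52 without PBS replicate 2. TM 1 h differed from DMSO by -1.13 (exact p = 0.2), TM 4 h from DMSO by -0.27 (exact p = 0.6) and TM 4 h from TM 1 h by 0.85 (exact p = 0.3). Without DMSO replicate 3 the TM 4 h difference from DMSO was 0.07. Scaled instead to the reads in all clusters of a library, arsenite differed from PBS by 2.40 (exact permutation p = 0.1). On that scale TM 1 h differed from DMSO by -0.88 (exact p = 0.1) and TM 4 h from DMSO by -0.29 (exact p = 0.2). TM 4 h differed from TM 1 h by 0.60 (exact p = 0.1). Shallow libraries have fewer called clusters, and beyond this rescaling the part of depth in the sums was not tested.

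Conversion, the mark of a crosslink, made up 8.56 ± 0.42% of events at the members' clusters in DMSO, 10.3 ± 3.10% in PBS, 9.72 ± 1.88% at TM 1 h, 9.36 ± 1.25% at TM 4 h and 9.85 ± 0.41% in arsenite (SD, n = 3). The value of PBS replicate 2 rested on 5 conversion events. Over the clusters of all genes the means were 7.73% to 8.70%. Two-sided exact permutation p-values of the 4 comparisons were 0.4 to 1, and 3 against 3 libraries cannot give less than 0.1, so no difference could have been called. Without PBS replicate 2 all arsenite libraries lay above both other PBS libraries, with an exact permutation p of 0.1, the smallest possible there. The same order held over the clusters of all genes. Arsenite libraries were at 8.625% to 8.809% there and all PBS libraries at 7.948% to 8.126%.

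Genes of related function were read from clusters, since symbols could be paired with cluster positions. Among 4869 genes with at least 50 cluster reads, arsenite and PBS libraries did not overlap and arsenite was higher in 19.5% and lower in 2.96%. Among the members, KLF5, KLF6 and KLF10 were higher and none was lower. Of 5 other KLF and SP genes with enough reads, SP2 and SP3 were higher: SP3, which binds the same GC-rich elements, had 243 ± 130 RPM in PBS and 948 ± 47.5 in arsenite (SD, n = 3). The median log2 ratio of these 5 was 0.75, against 0.64 over all genes.

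Of 14 partners and upstream factors, CTBP2, EP300, SIAH1 and MEF2D were higher in arsenite and CTBP1 was lower. EP300, an acetyltransferase that works with several Krüppel-like factors, had 88.3 ± 21.4 RPM in PBS and 419 ± 85.2 in arsenite, and the corepressor CTBP1 had 90.3 ± 11.98 and 57.8 ± 10.7 (SD, n = 3). Of 9 TGF-beta pathway genes, the signal transducer SMAD3 and the ubiquitin ligases SMURF1 and SMURF2 were higher. Medians of these lists were 1.10 and 1.15. SMAD3 and SIAH1 had 0 cluster reads in every PBS library, so clusters of any size in all arsenite libraries placed them higher. PBS replicate 2 held only 130478 gene counts, so a 0 there is weak. Over all genes with enough reads, 19.5% were higher in arsenite and 2.96% lower. At TM 4 h SP3 and HDAC3 were higher than DMSO and KLF6 was lower, where 4.25% of genes were higher and 2.38% lower. From TM 1 h to TM 4 h KLF5, KLF10, SP3 and HDAC3 were higher, where 8.58% of genes were. At TM 1 h KLF10 was lower and no gene of the 3 lists was higher or lower, where 0.431% were higher and 4.46% lower.

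The genes most like KLF10 across the 15 libraries were found by the Pearson correlation of log2 CPM, over 3337 genes whose mean count was 50 or more. ENSG00000136536_15 (r = 0.958) and ENSG00000180182_11 (r = 0.947) came first. The correlations span 5 conditions and 3 library sets, were picked as the highest and are a description.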

How the data were processed

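The members and gene lists were chosen with earlier results of these data known. The authors deposited raw whole-number counts per gene and 1 cluster list per library, with counts of reads and of conversion events; clusters were called per library. Per the submitters' processing notes, bcl2fastq 2.20.0.422, UMI-tools 1.1.1, Trimmomatic 0.30, Bowtie 0.12.7 and featureCounts 2.0.1 were used; roles and settings are not given in the sources used here. Columns were mapped by library name, with 0 left over. The PBS and arsenite IgG cluster lists carry names reversed against their samples, and the attachment was followed. No read was realigned here.

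Genes were tested in R 4.3.3 with edgeR 4.0.16 (filterByExpr, TMM, quasi-likelihood, two-sided), over all genes that passed, with Benjamini-Hochberg adjustment at 0.05. The 9 TM and DMSO libraries shared 1 fit. Each fit scaled its own libraries, while printed CPM were scaled over 15. The SE is the log2 fold change divided by the square root of F. The test was checked on simulated data. DESeq2 1.42.0, other scalings and filters, and left-out libraries were alternatives. Permutation tests were run in Python 3.11.15, with scipy 1.17.1 for the adjustment of their p-values.

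Named genes were all 9 members, the genes most correlated with KLF10 and at most 4 examples per list. Clusters were assigned to gene spans of the RefSeq table by strand; at 518 of 518 clusters inside its promoter windows the bases matched. List medians used a pseudocount of 5 RPM. Region shares and mean positions were added after seeing KLF5. The main fits did not pair libraries by replicate number.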

Additional observations from a re-analysis of the deposited data

Results flagged for a closer look

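A difference between 2 treatments that itself passed the test drew attention to 6 results. Under the contrast of the arsenite change against the TM 4 h change, these were KLF10 at 1.88, KLF6 at 1.71 and KLF5 at 1.29 on the log2 scale. Between TM 4 h and TM 1 h they were KLF4 at 0.94, KLF10 at 0.68 and KLF6 at -0.44. These come from edgeR fits across all genes, and KLF4 and KLF6 of the second group depend on single libraries. Groups of 3 libraries are too small for a check of single outlying libraries.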

How the results depend on the processing

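KLF10 was called at TM 1 h, and KLF5, KLF6 and KLF10 under arsenite and between the stresses, in all alternatives run. Members called at TM 1 h were 2 with no filter and 1 to 2 when a library was left out; at TM 4 h, 1 under DESeq2, 0 in replicates 1 and 2 only and 1 to 2 with a library left out; from TM 1 h to TM 4 h, 1 with a mean count of at least 50; and against IgG, 0 under DESeq2, library totals, DESeq2 size factors and a mean count of at least 50, and 0 to 2 with a library left out. The cause of these changes was not tested, apart from the smaller number of genes or libraries in some alternatives.

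Members that were not called changed sign in places. In replicates 1 and 2 only, KLF5 was at 0.047 (TM 1 h) and 0.16 (TM 4 h), KLF11 at 0.12 (TM 1 h) and KLF3 at 0.059 (TM 4 h). DESeq2 gave KLF11 0.036 at TM 1 h, KLF9 0.002 at TM 4 h and, against IgG, KLF3 -0.002 and KLF10 -0.12; library totals gave them -0.009 and -0.11, DESeq2 size factors in edgeR -0.006 and -0.10, and library totals put KLF3 between the stresses at -0.022. With a library left out, log2 fold changes ran at TM 1 h from -0.13 to 0.17 for KLF11; at TM 4 h from -0.17 to 0.029 for KLF3, -0.057 to 0.50 for KLF4, -0.34 to 0.079 for KLF5, -0.22 to 0.14 for KLF9 and -0.27 to 0.078 for KLF11; and from TM 1 h to TM 4 h from -0.02 to 0.17 for KLF3 and -0.30 to 0.092 for KLF11. They ran under arsenite from -0.19 to 0.13 for KLF3 and -0.20 to 0.15 for KLF4, between the stresses from -0.11 to 0.24 for KLF3 and -0.60 to 0.044 for KLF4, and against IgG from -0.80 to 0.76 for KLF11.

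Summed cluster reads at TM 4 h ran from -0.62 to 0.065 with a library left out, and conversion differences from -1.23 to 0.63 (TM 4 h against TM 1 h) and -1.46 to 1.31 percentage points (arsenite against PBS). All levels moved by less than 1 SD with library totals. With the replicate block no member's call changed, and KLF4 under arsenite was at 0.007. Same-numbered libraries, taken as deviations from their condition means, correlated between -0.11 and 0.09, so no pairing by number was seen. Noise between libraries could hide a pairing, so these values cannot exclude it. Over all genes, DESeq2 called 6 (TM 1 h), 151 (TM 4 h), 502 (TM 4 h against TM 1 h), 1233 (arsenite), 854 (between the stresses) and 178 (IgG), against 46, 426, 967, 2310, 1427 and 582. With replicates 1 and 2 only the first 3 were 16, 129 and 488, and with a mean count of at least 50 arsenite had 1380 and IgG 23. A left-out library moved some counts by over 1.5 times: at TM 1 h to 13 (DMSO replicate 3 left out), 17 (TM 1 h replicate 2) and 23 (TM 1 h replicate 1); at TM 4 h to 178 (DMSO replicate 3) and 247 (TM 4 h replicate 3); between the times to 523 (TM 1 h replicate 3); and against IgG to 338, 374 and 373 without the arsenite, DMSO or TM 1 h IgG library. With library totals and DESeq2 size factors the IgG counts were 92 and 91. IgG depth limits every statement on background.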
